A study of Mus musculus with 24 samples.

Results

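Mouse bone marrow-derived macrophages labelled as Pparg knockout (KO) were compared after an exposure to interleukin-4 (IL-4) that had ended a day earlier with KO cells that never received IL-4. The genes described are all those with a mean of at least 1 CPM (reads of a gene, scaled to the library's reads in genes) in the pretreated or the untreated KO group, which were 11230 of the 23420 genes in the table. The comparison uses 4 of the 24 samples of the series, 2 pretreated and 2 untreated. Pretreated KO cells received IL-4 for 24 h, at 20 ng per µl as the labels give it, were washed, and stayed for 24 h in differentiation medium. Untreated KO cells had no IL-4. Their washout is given as 0 h, against 24 h in pretreated KO cells, and no matched wash or added culture time is recorded. IL-4, the wash and culture time therefore cannot be told apart. Wild-type-labelled (WT) cells, in 2 pretreated and 2 untreated samples, make up the same pair of groups. A separate experiment of the series gave cells IL-4 for 24 h or vehicle with no washout, in 2 samples each, and its labels give no genotype. All cells came from bone marrow of male C57BL/6 mice aged 3 months and were differentiated for 6 days with M-CSF. The labels name neither the deleted stretch of Pparg nor any Cre line or promoter. Nor do they say whether a pair of samples came from separate mice or cultures, so the p-values measure only the spread between these samples, which may be technical.

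IL-4 is a cytokine of type 2 immunity that binds a receptor on macrophages and activates the transcription factor STAT6. The resulting state, called alternative activation, is known for secreted lectins and resistin-like proteins, mannose-binding receptors, arginine metabolism and cell fusion. Pparg encodes PPARγ, a nuclear receptor that is itself induced by IL-4 in macrophages, pairs with RXR on DNA and is best known for lipid uptake and storage genes. A washout asks which transcripts stay away from their untreated level after the cytokine has been removed.

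The deposited table holds 1 averaged column per group, but each averaged value is built from whole reads of 2 libraries and could be separated into them for 99.8% of the values above 0 in both KO columns. Within each group the library with more reads is called the deeper one and the other the shallower one, and values are given in that order. They held 8530095 and 7279030 reads in genes in pretreated KO cells, and 10873252 and 8509144 in untreated KO cells. A count of 3 reads equals 0.359 and 0.423 CPM in the pretreated libraries, and 0.274 and 0.350 CPM in the untreated ones. Pparg was at 25.8 and 27.3 CPM in pretreated KO libraries, against 22.3 and 19.9 CPM in untreated KO libraries. In WT cells it was at 19.0 and 22.6 CPM in pretreated libraries, against 24.2 and 21.9 CPM in untreated libraries. The 4 KO libraries thus spanned 19.9 to 27.3 CPM and the 4 WT libraries 19.0 to 24.2 CPM, and a count over the whole gene does not check a deletion of part of it. The log2 difference of Pparg in KO cells was 0.32 (SE 0.13, n = 2 per group), which did not pass limma's test (adjusted p = 0.097). Csf1r, the M-CSF receptor that defines macrophages, averaged 4757 CPM in pretreated KO cells and 5149 CPM in untreated KO cells. Lyz2, a lysozyme gene of myeloid cells, averaged 39.2 CPM in pretreated KO cells and 41.8 CPM in untreated KO cells, and 27042 CPM in pretreated WT cells and 30727 CPM in untreated WT cells.

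Markers of other cells were low. The 13 fibroblast markers summed to 4.90 and 13.7 CPM in pretreated KO libraries, against 2.83 and 2.33 CPM in untreated KO libraries. Dcn and Lum were at 0 in all 4, and Acta2 made up the largest share. Acta2 was called higher, at 2.63 and 5.49 CPM in pretreated KO libraries, against 1.37 and 0.699 CPM in untreated KO libraries. It lost its call in 9 of 14 alternative runs. Col1a2, the other measured member, was not called, at 0.598 and 3.10 CPM in pretreated KO libraries, against 0.0913 and 0.350 CPM in untreated KO libraries. Lymphocyte markers summed to 2.27 and 2.96 CPM in pretreated KO libraries, against 2.65 and 2.56 CPM in untreated KO libraries. Neutrophil markers summed to 149 and 139 CPM in pretreated KO libraries, against 142 and 157 CPM in untreated KO libraries, but 2 of 8 measured members were called higher and 3 lower. Csf3r, the G-CSF receptor, was the highest member in all 4 libraries. It was at 99.3 and 88.9 CPM in pretreated KO libraries, against 66.8 and 64.1 CPM in untreated KO libraries. S100a9, a calcium-binding protein, was at 11.7 and 12.0 CPM in pretreated KO libraries, against 25.8 and 28.6 CPM in untreated KO libraries. Dendritic cell markers summed to 4.67 and 6.48 CPM in pretreated KO libraries, against 3.38 and 4.31 CPM in untreated KO libraries. Markers of eosinophils, mast cells and basophils summed to 16.03 and 18.3 CPM in pretreated KO libraries, against 21.9 and 25.8 CPM in untreated KO libraries. Red cell and platelet markers summed to 10.3 and 9.58 CPM in pretreated KO libraries, against 9.40 and 10.7 CPM in untreated KO libraries, with the globin genes at 0. The part of other cells in the results was not tested. In bulk RNA, fewer cells of a type and less RNA per cell cannot be told apart. One more feature sets KO and WT libraries apart. A set of 252 genes, here called counting-sensitive, lay over 4-fold apart between the 2 libraries in at least 2 groups of the separate experiment. Their medians were 1.36 to 1.63 CPM in all 8 KO libraries of the table and in the shallower pretreated WT library. In the other 7 WT libraries the medians were 24.4 to 34.1 CPM. A low or high median is called the counting kind of a library. The name assumes a difference in how reads of shared sequence were counted, which the labels do not give and which was not tested. All 4 KO libraries compared are of one kind, and of the 142 of these genes tested in the KO comparison 3 were called.

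Differences are given as limma's log2 difference of CPM + 1, pretreated minus untreated, with its standard error (SE). A gene is called higher or lower at a Benjamini-Hochberg adjusted p under 0.05 over all 11230 genes. A gene with a mean under 1 CPM in 1 group entered through the other, so its direction was largely fixed by the filter. After washout 1039 genes (9.25%) were higher and 1119 (9.96%) were lower in KO cells. These shares of all genes are the background for every list count below. The changes were larger upward. On the authors' averaged columns, 167 genes (1.49%) were beyond 2-fold higher and 52 (0.463%) beyond 2-fold lower, of which 163 and 52 were also called. The median log2 difference over all genes was -0.03 and the median SE 0.117, and the libraries of the groups did not overlap for 59.5% of all genes. The same held for 1035 of the 1039 genes called higher and all 1119 called lower. A lack of overlap is therefore no added support for a call. Between the libraries of a group, log2 values differed with an SD of 0.192 in pretreated and 0.137 in untreated KO cells. The counts of small changes depended on the fit: leaving out the deeper pretreated, shallower pretreated, deeper untreated or shallower untreated KO library gave 603, 504, 358 and 346 genes higher and 610, 407, 207 and 207 lower. With the counting kind of the libraries as a term, 599 genes were higher and 500 lower. All KO libraries are of the same kind, so this term cannot change a KO difference, only its SE. That fit also left out genes unresolved in any group. A core of 237 genes higher and 110 lower was called without group weights, by limma-voom and in all 4 fits that leave out a KO library. The genes named below, except those said to have been chosen after their values were seen, follow a rule of size and list membership, with a few uncalled members given for their values. Of the 140 genes of the rule 81 kept their call in every alternative run, of up to 16. They are described as kept in every alternative where that holds.

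Retnla and Chi3l3 had the highest ratios of pretreated to untreated KO cells. Retnla encodes a secreted resistin-like protein of alternatively activated macrophages. It was at 2580 and 2188 CPM in pretreated KO libraries, against 1.28 and 3.85 CPM in untreated KO libraries, a log2 difference of 9.48 (SE 0.28; adjusted p = 5.7e-11, limma). Both pretreated libraries lay far above both untreated ones. Chi3l3 encodes the chitinase-like lectin Ym1. It was at 464 and 398 CPM in pretreated KO libraries, against 13.9 and 12.1 CPM in untreated KO libraries, a log2 difference of 4.95 (SE 0.11; adjusted p = 1.2e-13, limma). Its near-identical neighbour Chi3l4 may share reads with it, so the split between the pair is uncertain. Mgl2, a galactose-binding lectin of the macrophage surface, was at 49.5 and 50.2 CPM in pretreated KO libraries, against 2.56 and 3.15 CPM in untreated KO libraries (log2 difference 3.73, SE 0.11). Itgax, the CD11c integrin chain, was at 384 and 411 CPM in pretreated KO libraries, against 64.8 and 69.6 CPM in untreated KO libraries (log2 difference 2.55, SE 0.11). The groups were separate for both genes. Ear11 encodes an eosinophil-associated ribonuclease of a family with near-identical members. It was at 5.38 and 3.94 CPM in pretreated KO libraries and had no reads in either untreated KO library, which makes it at least 14.96-fold higher, counting 3 reads in each untreated library as the limit of detection. These 5 genes kept their calls in every alternative.

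**Figure D1:**
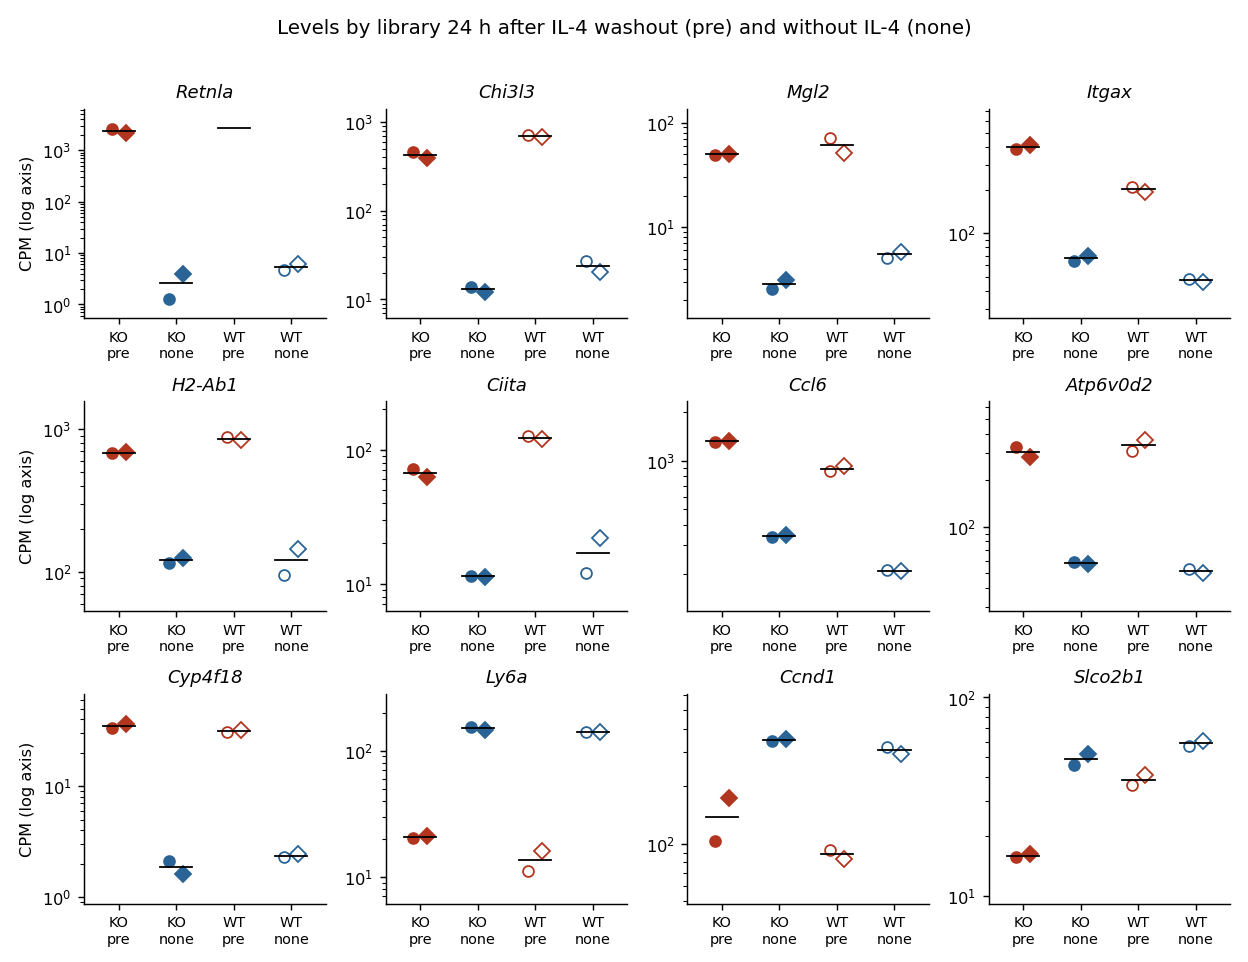
Levels of 12 genes in each library, in CPM on log axes. Red symbols are pretreated and washed-out cells, blue symbols untreated cells, filled symbols KO and open symbols WT, with circles for the deeper and diamonds for the shallower library and a line for the authors' mean. For Retnla in pretreated WT cells the libraries could not be separated, so the mean alone is drawn. In KO cells the red and blue symbols do not overlap for any of the 12 genes, as for 59.5% of all genes tested. Retnla, at 2580 and 2188 CPM against 1.28 and 3.85 CPM, shows the widest gap, while Ccnd1, at 103 and 174 CPM in pretreated KO libraries, shows unequal libraries.

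Promoter sequence is shown for members of this group because their transcripts had the largest differences. RefSeq windows on GRCm38.p6, from 250 bases before to 50 bases after the start, were found for 10 of the 15 genes with the highest ratios, and H2-Ab1, Ciita, Cd300lg, Fn1 and Cd74 are named only. Each line below gives 100 bases 5′ to 3′ on the gene's strand, and capitals mark matches on either strand to TTCNNNNGAA or TTCNNNGAA, the palindromes that STAT proteins bind, or to CCAAT, the box bound by NF-Y, which reads ATTGG on the other strand.
Retnla, chr16:48842409-48842508, plus strand: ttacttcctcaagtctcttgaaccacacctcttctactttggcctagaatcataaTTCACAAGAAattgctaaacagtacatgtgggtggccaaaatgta
Chi3l3 (RefSeq Chil3), chr3:106167715-106167814, minus strand: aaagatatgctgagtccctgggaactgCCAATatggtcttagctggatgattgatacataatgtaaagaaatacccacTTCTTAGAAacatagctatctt
Mgl2, chr11:70130207-70130306, plus strand: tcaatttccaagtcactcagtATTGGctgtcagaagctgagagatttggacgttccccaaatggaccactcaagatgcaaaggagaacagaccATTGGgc
Itgax, chr7:128129350-128129449, plus strand: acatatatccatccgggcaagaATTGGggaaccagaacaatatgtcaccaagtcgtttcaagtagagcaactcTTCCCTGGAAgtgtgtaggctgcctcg

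The 4-base-spaced palindrome, TTCNNNNGAA, was in the windows of Retnla and Itgax, 2 of the 10, and in 8.01% of 27025 RefSeq windows. The 3-base-spaced form, TTCNNNGAA, was in that of Chi3l3, 1 of the 10, and in 9.55% of all windows. CCAAT was in 9 of the 10 and in 41.1% of all windows. The repeat bound by PPARγ with RXR, AGGTCA given again after 1 base, was in none of the 10 windows and in 0.0481% of all windows, so a window of this length and an exact match rarely contain it. The motifs did not overlap in the stretches shown. A match is a description of letters, not a binding site.

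Across the list of 28 measured IL-4 effector genes, 21 were higher and 3 lower, with a median log2 difference of 0.95 beside -0.03 for all genes. Without group weights 17 were higher, by limma-voom 12, and in all 4 fits that leave out a KO library 17. Fn1, the matrix protein fibronectin, was at 8.25 and 13.7 CPM in pretreated KO libraries, against 1.37 and 1.049 CPM in untreated KO libraries (log2 difference 2.40, SE 0.28), but lost its call by limma-voom and without group weights. The fibroblast markers above were also higher in the shallower pretreated library, which had more Fn1, and their part was not tested. Tmem26, a membrane protein, was at 8.73 and 8.03 CPM in pretreated KO libraries, against 1.55 and 2.45 CPM in untreated KO libraries (log2 difference 1.66, SE 0.13). Cd274, the inhibitory ligand PD-L1, was at 82.5 and 66.9 CPM in pretreated KO libraries, against 37.8 and 32.6 CPM in untreated KO libraries (log2 difference 1.06, SE 0.10). Clec7a, the β-glucan receptor Dectin-1, was at 189 and 163 CPM in pretreated KO libraries, against 97.8 and 94.6 CPM in untreated KO libraries (log2 difference 0.86, SE 0.08). These 3 genes kept their calls in every alternative, and the groups did not overlap. Some members of the list were low. Ear11, Pdcd1lg2 and Flt1 passed the filter of 1 CPM only through pretreated KO cells, so they could hardly be called lower. Pdcd1lg2, the inhibitory ligand PD-L2, was at 1.08 and 1.27 CPM in pretreated KO libraries, against 0.0913 and 0.350 CPM in untreated KO libraries, and lost its call by limma-voom, with 4 CPM added and without the deeper untreated KO library. Flt1, a receptor for VEGF, was at 3.47 and 1.55 CPM in pretreated KO libraries, against 0.456 and 0.583 CPM in untreated KO libraries, and lost its call by limma-voom.

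Antigen presentation by MHC class II formed the most uniform group. Of 11 measured members, 9 were higher and none lower, with a median log2 difference of 1.96, and 8 were higher without group weights, by limma-voom and in all 4 fits that leave out a KO library. Ciita, the coactivator that switches on the class II genes, was at 71.8 and 62.1 CPM in pretreated KO libraries, against 11.4 and 11.3 CPM in untreated KO libraries (log2 difference 2.46, SE 0.19; adjusted p = 1.4e-07, limma). H2-Ab1, a β chain of the class II molecule, was at 683 and 688 CPM in pretreated KO libraries, against 116 and 126 CPM in untreated KO libraries (log2 difference 2.50, SE 0.13). Its partner H2-Aa, an α chain, was at 969 and 869 CPM in pretreated KO libraries, against 174 and 175 CPM in untreated KO libraries (log2 difference 2.39, SE 0.11). All 3 were separate between groups and lay within a narrow span of log2 differences. H2-Eb1, a β chain of the second class II molecule, was at 536 and 526 CPM in pretreated KO libraries, against 105 and 106 CPM in untreated KO libraries (log2 difference 2.32, SE 0.12). Cd74, the invariant chain that escorts class II molecules, was at 4481 and 4312 CPM in pretreated KO libraries, against 771 and 891 CPM in untreated KO libraries (log2 difference 2.41, SE 0.10). These 5 genes kept their calls in every alternative. The 2 members that were not called were H2-DMb2 and H2-Ob. RefSeq windows were found for 6 of the 9 called members, and CCAAT was in 4 of them, among them that of H2-Aa, whose last 100 bases before the start are shown with CCAAT, here read as ATTGG, in capitals.
H2-Aa, chr17:34287824-34287923, minus strand: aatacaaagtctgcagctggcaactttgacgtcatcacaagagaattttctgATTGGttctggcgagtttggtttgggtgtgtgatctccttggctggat

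Class II genes are also high in dendritic cells. Markers of those cells summed to 4.67 and 6.48 CPM in pretreated KO libraries, against 3.38 and 4.31 CPM in untreated KO libraries. The part of such cells in the class II differences was not tested. Among 13 measured co-stimulatory genes, 5 were higher and 3 lower, with a median log2 difference of 0.28. Cd274 was the largest difference upward. Tnfsf9, the ligand 4-1BBL, was at 6.58 and 7.18 CPM in pretreated KO libraries, against 15.7 and 15.3 CPM in untreated KO libraries (log2 difference -1.07, SE 0.19), and lost its call without the deeper untreated KO library. Cd80 and Cd83, markers of activated antigen-presenting cells, had log2 differences of 0.62 (SE 0.15) and 0.62 (SE 0.11). Cd80 lost its call without the shallower library of either group, and Cd83 without either untreated KO library, by limma-voom and without group weights.

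**Figure D2:**
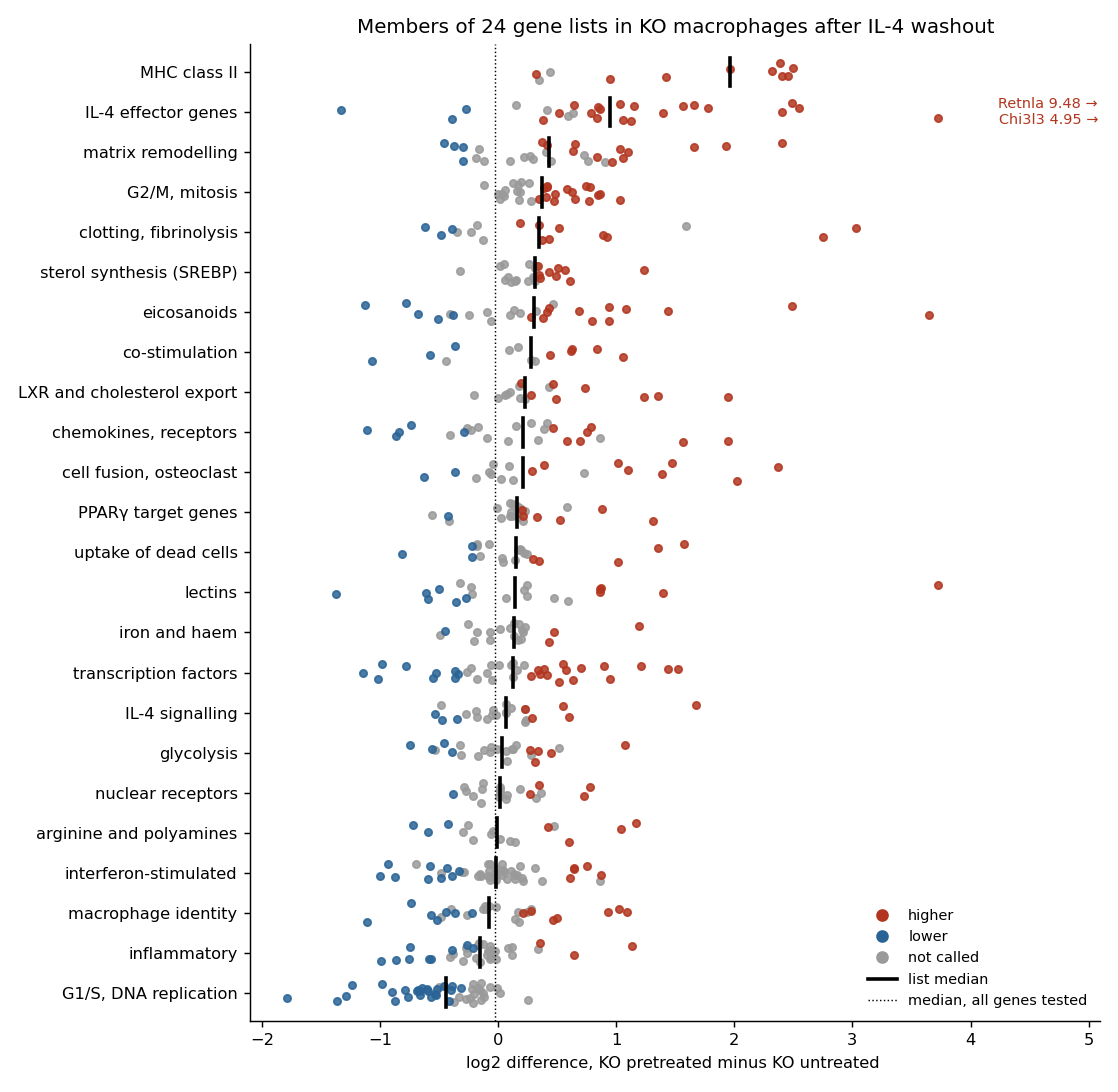
Log2 differences of the measured members of 24 gene lists, KO pretreated minus KO untreated, 1 point per gene. Red points were called higher by limma, blue lower and grey neither, a black bar marks the list median and the dotted line the median of all genes tested (-0.03). Retnla (9.48) and Chi3l3 (4.95) lie beyond the axis and are written in. The MHC class II median of 1.96 lies highest and that of G1/S and DNA replication, -0.44, lowest.

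Genes of the IL-4 pathway itself were called in both directions. Of 23 measured signalling genes, 5 were higher and 3 lower, where 9.25% of all genes were higher and 9.96% lower. The median log2 difference was 0.06. Without group weights 2 were higher and 1 lower, and by limma-voom 0 and 1. In all 4 fits that leave out a KO library 1 was higher and 2 lower. Cish, a feedback inhibitor induced by STAT proteins, was at 6.82 and 6.20 CPM in pretreated KO libraries, against 1.55 and 1.17 CPM in untreated KO libraries (log2 difference 1.67, SE 0.15), and lost its call by limma-voom. Il4ra, the receptor chain that binds IL-4, was at 259 and 284 CPM in pretreated KO libraries, against 373 and 381 CPM in untreated KO libraries (log2 difference -0.47, SE 0.07; adjusted p = 9.9e-05, limma), and kept its call in every alternative. Socs1, another feedback inhibitor, was at 1.56 and 2.11 CPM in pretreated KO libraries, against 0.913 and 0.932 CPM in untreated KO libraries, and lost its call in 8 alternatives, among them those without the shallower pretreated, deeper untreated or shallower untreated KO library.

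Among 36 measured transcription factors and chromatin regulators, 15 were higher and 9 lower, with a median of 0.13, beside 9.25% and 9.96% of all genes. In all 4 fits that leave out a KO library 9 were higher and 3 lower. Bhlhe40, a basic helix-loop-helix repressor, was at 21.1 and 22.5 CPM in pretreated KO libraries, against 7.03 and 6.88 CPM in untreated KO libraries (log2 difference 1.52, SE 0.10). Kdm6b, an H3K27 demethylase, was at 29.9 and 29.9 CPM in pretreated KO libraries, against 12.3 and 12.5 CPM in untreated KO libraries (log2 difference 1.21, SE 0.16). Batf3, an AP-1 family factor, had a log2 difference of 1.44 (SE 0.20) and lost its call by limma-voom and without group weights. Id3 and Id1 encode inhibitors of helix-loop-helix factors and differed the other way. Id3 was at 12.7 and 18.03 CPM in pretreated KO libraries, against 40.2 and 29.8 CPM in untreated KO libraries (log2 difference -1.14, SE 0.16). Id1 was at 1.91 and 3.10 CPM in pretreated KO libraries, against 5.20 and 6.88 CPM in untreated KO libraries (log2 difference -1.02, SE 0.16). Bhlhe40, Kdm6b, Id3 and Id1 kept their calls in every alternative.

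Of 20 measured nuclear receptors and cofactors, Pparg included, 4 were higher and 1 lower, where 9.25% of all genes were higher and 9.96% lower. Rarg, a retinoic acid receptor, was at 45.9 and 41.8 CPM in pretreated KO libraries, against 25.7 and 24.7 CPM in untreated KO libraries (log2 difference 0.77, SE 0.12) and kept its call in every alternative. Nr1h3, the sterol receptor LXRα, had a log2 difference of 0.73 (SE 0.16) and lost its call by limma-voom and without the shallower pretreated, deeper untreated or shallower untreated KO library. Of 23 measured PPARγ target genes, 6 were higher and 1 lower, with a median of 0.16, but 2 were higher without group weights and 1 by limma-voom. That gene was Fabp5, a carrier of fatty acids, at 111 and 111 CPM in pretreated KO libraries, against 45.2 and 42.9 CPM in untreated KO libraries (log2 difference 1.31, SE 0.13). Fabp4, its close relative, was at 14.5 and 11.7 CPM in pretreated KO libraries, against 5.93 and 7.34 CPM in untreated KO libraries (log2 difference 0.88, SE 0.19) and lost its call by limma-voom and without the deeper library of either group. The fatty acid transporter gene Cd36 was at 917 and 795 CPM in pretreated KO libraries, against 757 and 767 CPM in untreated KO libraries (log2 difference 0.16, SE 0.09), and was not called.

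Genes of cholesterol handling moved upward where they were called. Of 17 measured genes of LXR and cholesterol export, 8 were higher and none lower. Scd2, a fatty acid desaturase, was at 44.0 and 47.8 CPM in pretreated KO libraries, against 12.2 and 10.1 CPM in untreated KO libraries (log2 difference 1.95, SE 0.11). Abcg1, a cholesterol exporter, was at 138 and 124 CPM in pretreated KO libraries, against 50.7 and 50.7 CPM in untreated KO libraries (log2 difference 1.35, SE 0.08). Pltp, the phospholipid transfer protein, and Smpdl3a, a secreted phosphodiesterase, had log2 differences of 0.74 (SE 0.11) and 0.49 (SE 0.07). These 4 genes kept their calls in every alternative. Of 24 measured genes of sterol synthesis under SREBP, 9 were higher and none lower, with a median of 0.31, but 3 were higher in all 4 fits that leave out a KO library. Mvd, an enzyme of the mevalonate pathway, was at 38.0 and 44.0 CPM in pretreated KO libraries, against 18.1 and 15.6 CPM in untreated KO libraries (log2 difference 1.23, SE 0.14). Hmgcs1, which makes HMG-CoA, had a log2 difference of 0.56 (SE 0.09). Both kept their calls in every alternative.

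Of 18 measured genes of macrophage fusion and bone resorption, 8 were higher and 2 lower, and 4 were higher in all 4 fits that leave out a KO library. Atp6v0d2, a subunit of the proton pump that is required for macrophage fusion, was at 329 and 281 CPM in pretreated KO libraries, against 59.0 and 57.0 CPM in untreated KO libraries (log2 difference 2.37, SE 0.10; adjusted p = 1.3e-10, limma). Ctsk, the collagen-degrading cathepsin K, was at 22.1 and 15.6 CPM in pretreated KO libraries, against 3.92 and 3.73 CPM in untreated KO libraries (log2 difference 2.02, SE 0.16). Acp5, the tartrate-resistant phosphatase, and Dcstamp, a fusion receptor, had log2 differences of 1.47 (SE 0.15) and 1.39 (SE 0.20). These 4 genes kept their calls in every alternative. Ocstamp, a second fusion protein, was at 1.20 and 1.27 CPM in pretreated KO libraries, against 0.0913 and 0 CPM in untreated KO libraries, and lost its call when either untreated KO library was left out.

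Of 28 measured genes of matrix remodelling, 12 were higher and 4 lower, with a median of 0.43. Mmp8, a collagenase, was at 324 and 279 CPM in pretreated KO libraries, against 76.6 and 79.6 CPM in untreated KO libraries (log2 difference 1.93, SE 0.08). Timp2, an inhibitor of metalloproteinases, was at 658 and 680 CPM in pretreated KO libraries, against 317 and 307 CPM in untreated KO libraries (log2 difference 1.10, SE 0.08). Mmp8, Timp2 and the metalloproteinase Mmp27 (log2 difference 1.06, SE 0.15) kept their calls in every alternative, and Thbs1, a matrix protein, lost its call whichever of the 4 KO libraries was left out. Among coagulation genes, both the factor genes F7 and F10 were higher. F7, coagulation factor VII, was at 23.6 and 24.5 CPM in pretreated KO libraries, against 1.83 and 2.33 CPM in untreated KO libraries (log2 difference 3.03, SE 0.16). F10, coagulation factor X, was at 39.2 and 34.8 CPM in pretreated KO libraries, against 4.84 and 4.43 CPM in untreated KO libraries (log2 difference 2.75, SE 0.14). Of 17 measured genes of clotting and fibrinolysis, 9 were higher and 3 lower. Plaur, the urokinase receptor, had a log2 difference of 0.89 (SE 0.10), whereas Plau, urokinase itself, was at 176 and 192 CPM in pretreated KO libraries, against 282 and 281 CPM in untreated KO libraries (log2 difference -0.62, SE 0.06). F7, F10, Plaur and Plau kept their calls in every alternative.

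Lipid mediators gave some of the largest single differences. Of 26 measured genes, 12 were higher and 5 lower, with a median of 0.30, beside 9.25% and 9.96% of all genes. Cyp4f18, a cytochrome P450 that inactivates leukotriene B4 in mice, was at 33.6 and 36.1 CPM in pretreated KO libraries, against 2.10 and 1.63 CPM in untreated KO libraries (log2 difference 3.65, SE 0.19; adjusted p = 9.2e-10, limma). Ephx1, the microsomal epoxide hydrolase, was at 191 and 198 CPM in pretreated KO libraries, against 32.2 and 35.7 CPM in untreated KO libraries (log2 difference 2.49, SE 0.10). Ptger2, a prostaglandin E2 receptor, was at 43.2 and 43.0 CPM in pretreated KO libraries, against 14.97 and 15.6 CPM in untreated KO libraries (log2 difference 1.44, SE 0.11). Hpgd, which inactivates prostaglandins, differed the other way. It was at 149 and 122 CPM in pretreated KO libraries, against 297 and 293 CPM in untreated KO libraries (log2 difference -1.13, SE 0.10). These 4 genes and Mgst1, a membrane glutathione transferase (log2 difference 1.08, SE 0.12), kept their calls in every alternative.

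Surface receptors divided. Among 20 measured lectins, 5 were higher and 6 lower, beside 9.25% and 9.96% of all genes. Clec4a3, a C-type lectin receptor, was at 143 and 132 CPM in pretreated KO libraries, against 72.7 and 77.2 CPM in untreated KO libraries (log2 difference 0.87, SE 0.08). Siglece, a sialic acid-binding inhibitory receptor, was at 9.21 and 16.5 CPM in pretreated KO libraries, against 35.5 and 31.7 CPM in untreated KO libraries (log2 difference -1.37, SE 0.18). Among 24 measured chemokines and receptors, 7 were higher and 5 lower. Ccl6, a macrophage chemokine of rodents, was at 1307 and 1325 CPM in pretreated KO libraries, against 337 and 345 CPM in untreated KO libraries (log2 difference 1.94, SE 0.07; adjusted p = 6.3e-12, limma). Cx3cr1, the fractalkine receptor, was at 39.96 and 45.6 CPM in pretreated KO libraries, against 92.9 and 93.8 CPM in untreated KO libraries (log2 difference -1.11, SE 0.15). Clec4a3, Siglece, Ccl6 and Cx3cr1 kept their calls in every alternative, as did Ccl8, at 3.59 and 1.27 CPM in pretreated KO libraries, against 0.183 and 0 CPM in untreated KO libraries.

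Among 27 measured genes of macrophage identity, 7 were higher and 7 lower, beside 9.25% and 9.96% of all genes. The receptors for antibodies were split. Fcgr2b, the inhibitory receptor, was at 507 and 472 CPM in pretreated KO libraries, against 250 and 231 CPM in untreated KO libraries (log2 difference 1.02, SE 0.07). Fcgr4, an activating receptor, was at 111 and 121 CPM in pretreated KO libraries, against 55.6 and 52.6 CPM in untreated KO libraries (log2 difference 1.09, SE 0.12). Fcgr1, the high-affinity receptor, was at 109 and 119 CPM in pretreated KO libraries, against 183 and 197 CPM in untreated KO libraries (log2 difference -0.74, SE 0.07). Lgals3, the abundant galectin-3, was at 5225 and 5383 CPM in pretreated KO libraries, against 2742 and 2832 CPM in untreated KO libraries (log2 difference 0.93, SE 0.07). All 4 kept their calls in every alternative. For uptake of dead cells, 5 of 20 measured genes were higher and 3 lower. Mfge8, which bridges dead cells to integrins, was at 344 and 390 CPM in pretreated KO libraries, against 113 and 133 CPM in untreated KO libraries (log2 difference 1.57, SE 0.11), and Stab2, a scavenger receptor, had a log2 difference of 1.35 (SE 0.20). Both kept their calls in every alternative.

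Metabolic lists held calls in both directions, but few were kept in other fits. Of 16 measured genes of arginine and polyamine metabolism, 4 were higher and 3 lower, with a median of -0.01. Over all genes 9.25% were higher and 9.96% lower. Of this list 1 was higher without group weights, 1 by limma-voom and 2 in all 4 fits that leave out a KO library. Its lower calls numbered 0 in each of these. Slc7a2, a transporter of cationic amino acids, was at 10.8 and 10.7 CPM in pretreated KO libraries, against 4.02 and 4.43 CPM in untreated KO libraries (log2 difference 1.17, SE 0.10), and kept its call in every alternative. Arg1, arginase, was near the limit of detection, at 0.837 and 2.96 CPM in pretreated KO libraries, against 0.274 and 0.350 CPM in untreated KO libraries. It lost its call in 6 alternatives, among them those without the shallower pretreated, deeper untreated or shallower untreated KO library. For iron and haem 3 of 20 measured genes were higher and 1 lower, beside 9.25% and 9.96% of all genes. For glycolysis 5 of 24 were higher and 4 lower. Without group weights 1 was higher and 2 lower, and by limma-voom 0 and 1. In all 4 fits that leave out a KO library 1 was higher and 1 lower. Nqo1, a quinone reductase, had a log2 difference of 1.19 (SE 0.17), and Aldoc, an aldolase, of -0.75 (SE 0.12), and both kept their calls in every alternative.

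Interferon-stimulated genes did not move as a block. Of 48 measured members, 5 were higher and 9 lower, with a median of -0.02, close to that of all genes. Over all genes 9.25% were higher and 9.96% lower, so the share higher was near that of all genes. None of the 5 and 4 of the 9 kept their calls in all 4 fits that leave out a KO library. Irf7, a master regulator of type I interferon, was at 75.1 and 81.8 CPM in pretreated KO libraries, against 152 and 164 CPM in untreated KO libraries (log2 difference -1.002, SE 0.09). Rtp4, an interferon-induced chaperone, had a log2 difference of -0.88 (SE 0.12). Among 35 measured inflammatory genes, 3 were higher and 9 lower, with a median of -0.16. Tnf, the inflammatory cytokine, was at 14.4 and 18.5 CPM in pretreated KO libraries, against 32.6 and 34.2 CPM in untreated KO libraries (log2 difference -0.99, SE 0.17), and lost its call without group weights and without the shallower untreated KO library. Ccl4, a chemokine, was at 16.2 and 15.1 CPM in pretreated KO libraries, against 29.4 and 29.1 CPM in untreated KO libraries (log2 difference -0.87, SE 0.13). Irf7, Rtp4 and Ccl4 kept their calls in every alternative.

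The cell cycle genes parted by phase. Of 44 measured genes of G1/S and DNA replication, 25 were lower and none higher, with a median of -0.44. Of 30 measured genes of G2/M and mitosis, 16 were higher and none lower, with a median of 0.37. The counts depended on the fit: G1/S genes lower numbered 10 without group weights, 10 by limma-voom and 7 in all 4 fits that leave out a KO library, and G2/M genes higher 7, 5 and 7. Ccnd1, the cyclin of early G1, was at 103 and 174 CPM in pretreated KO libraries, against 342 and 351 CPM in untreated KO libraries (log2 difference -1.37, SE 0.14; adjusted p = 2.5e-06, limma). Mcm6, a subunit of the replicative helicase, was at 156 and 158 CPM in pretreated KO libraries, against 306 and 320 CPM in untreated KO libraries (log2 difference -0.99, SE 0.12). Cdca7, a target of Myc and E2F, was at 4.79 and 8.59 CPM in pretreated KO libraries, against 14.97 and 18.4 CPM in untreated KO libraries (log2 difference -1.24, SE 0.19). All 3 had both pretreated libraries below both untreated ones, as did every gene called lower. Cdc20, the activator of the anaphase-promoting complex, was at 75.0 and 97.1 CPM in pretreated KO libraries, against 42.7 and 39.98 CPM in untreated KO libraries (log2 difference 1.03, SE 0.13). Cenpf, a kinetochore protein, was at 64.5 and 68.3 CPM in pretreated KO libraries, against 35.4 and 36.7 CPM in untreated KO libraries (log2 difference 0.86, SE 0.14). Kif20a, a mitotic kinesin, was at 144 and 140 CPM in pretreated KO libraries, against 87.6 and 78.3 CPM in untreated KO libraries (log2 difference 0.77, SE 0.09). These 6 genes kept their calls in every alternative. In WT cells 32 of the 44 G1/S genes were lower and 5 of the 30 G2/M genes higher. RefSeq windows were found for 14 of the 16 G2/M genes called higher, and CCAAT was in 13 of them (92.9%), beside 10 of 19 windows of G1/S genes called lower and 41.1% of all windows.

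**Figure D3:**
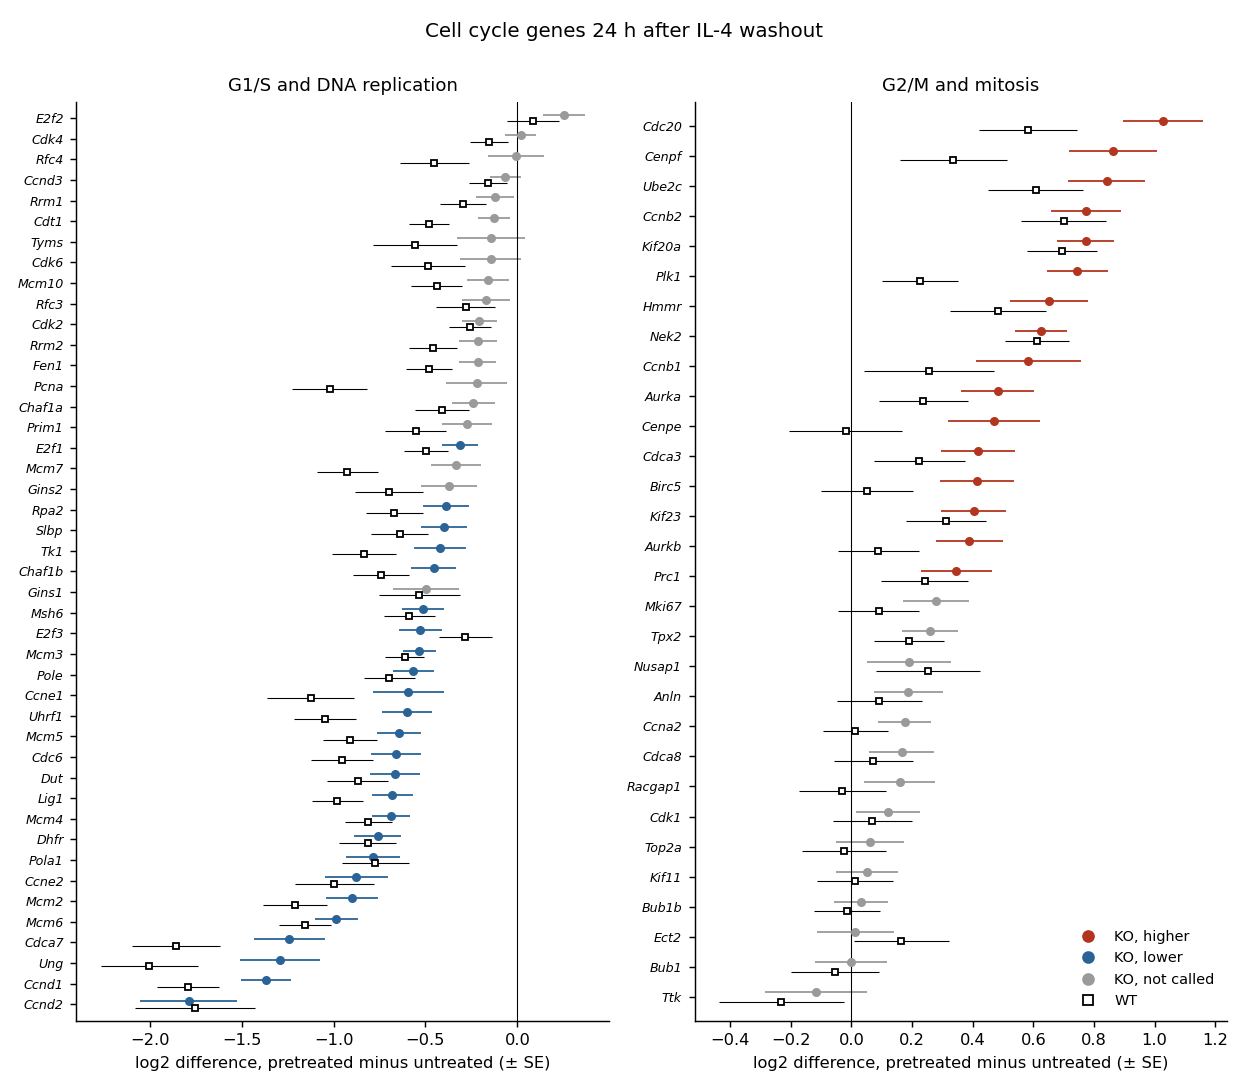
Log2 differences, pretreated minus untreated, of the genes of G1/S and DNA replication and of G2/M and mitosis. Filled circles with bars are KO cells (difference and SE) and open squares are WT cells. In KO cells 25 of 44 G1/S genes were called lower and 16 of 30 G2/M genes called higher.

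The genes with the lowest ratios were a mixed set. Ly6a, the surface protein Sca-1, was at 20.2 and 21.0 CPM in pretreated KO libraries, against 153 and 147 CPM in untreated KO libraries (log2 difference -2.80, SE 0.13; adjusted p = 3.0e-10, limma). It belongs to a family of similar genes that may share reads. Ctla2a, related to cathepsin propeptides, was at 2.39 and 2.39 CPM in pretreated KO libraries, against 16.6 and 15.2 CPM in untreated KO libraries (log2 difference -2.31, SE 0.20). Cmah, an enzyme of sialic acid metabolism, was at 2.63 and 2.25 CPM in pretreated KO libraries, against 11.5 and 11.8 CPM in untreated KO libraries (log2 difference -1.88, SE 0.19). The groups were separate for all 3. Dmpk, a protein kinase gene, was at 60.7 and 92.8 CPM in pretreated KO libraries, against 221 and 191 CPM in untreated KO libraries (log2 difference -1.44, SE 0.13). Slco2b1, an organic anion transporter, was at 15.7 and 16.3 CPM in pretreated KO libraries, against 45.5 and 52.2 CPM in untreated KO libraries (log2 difference -1.55, SE 0.13). Mt2, a metallothionein, had a log2 difference of -1.34 (SE 0.14), Slc24a3, a cation exchanger, of -1.62 (SE 0.17), and Mpo, the neutrophil peroxidase, of -1.33 (SE 0.22) at 0.479 and 0.564 CPM in pretreated KO libraries, against 2.65 and 3.03 CPM in untreated KO libraries. These 8 genes kept their calls in every alternative. Ccnd2, a second D-type cyclin, had a log2 difference of -1.79 (SE 0.27) and lost its call by limma-voom and without group weights.

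The separate experiment gives levels after 24 h of IL-4 with no washout, in cells of unlabelled genotype and with no sample shared. No KO cells were sampled at that point. Vehicle and untreated KO cells differed for some genes, in both directions. H2-Ab1 averaged 922 CPM with vehicle, against 116 and 126 CPM in untreated KO libraries. Cyp4f18 averaged 44.9 CPM with vehicle, against 2.10 and 1.63 CPM, and Mmp8 39.9 CPM, against 76.6 and 79.6 CPM. On the averaged columns of the separate experiment, 732 of 11140 genes (6.57%) were beyond 2-fold higher with IL-4 than with vehicle. Beyond 2-fold lower were 731 (6.56%). Of the 643 IL-4-induced genes measured in KO washout cells, 282 (43.9%) were called higher there, 48 (7.47%) lower and 313 neither, and their median log2 difference was 0.28, beside 9.25% of all genes called higher and 9.96% lower. Of the 711 IL-4-repressed genes measured, 187 (26.3%) were called lower, 69 (9.70%) higher and 455 neither, with a median of -0.14. The share of repressed genes called higher was thus near that of all genes. Among genes beyond 4-fold with IL-4, 115 of 163 induced genes (70.6%) were called higher and 67 of 173 repressed genes (38.7%) lower.

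The gap between levels after washout in KO cells and levels with 24 h of IL-4 in the other cells differed between genes. Levels of the separate tables were not scaled together. Retnla averaged 18412 CPM with IL-4 for 24 h and 5.22 CPM with vehicle. Chi3l3 averaged 907 CPM with IL-4 and 45.0 CPM with vehicle, Itgax 1901 CPM with IL-4 and 25.1 CPM with vehicle, and Mgl2 1091 CPM with IL-4 and 20.9 CPM with vehicle. Arg1 averaged 775 CPM with IL-4 and 0.146 CPM with vehicle, and Fn1 635 CPM with IL-4 and 3.27 CPM with vehicle. Ear11 averaged 568 CPM with IL-4 and 0.176 CPM with vehicle, and Tmem26 399 CPM with IL-4 and 1.24 CPM with vehicle. The pretreated KO libraries given above held at most 13.7 CPM of Arg1, Fn1, Ear11 and Tmem26, and at least 384 CPM of Retnla, Chi3l3 and Itgax. Mgl2 lay between, at 49.5 and 50.2 CPM. Untreated KO libraries already held 64.8 and 69.6 CPM of Itgax. A first exposure of 3 h in KO cells, which shares its untreated libraries with the washout comparison, averaged 75.3 CPM for Retnla, 25.7 for Chi3l3, 71.0 for Mgl2, 85.8 for Itgax, 134 for Tmem26 and 90.8 for Arg1. For H2-Ab1, Ciita and Cd74 it averaged 96.5, 6.22 and 803 CPM, none above the higher untreated library.

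**Figure D4:**
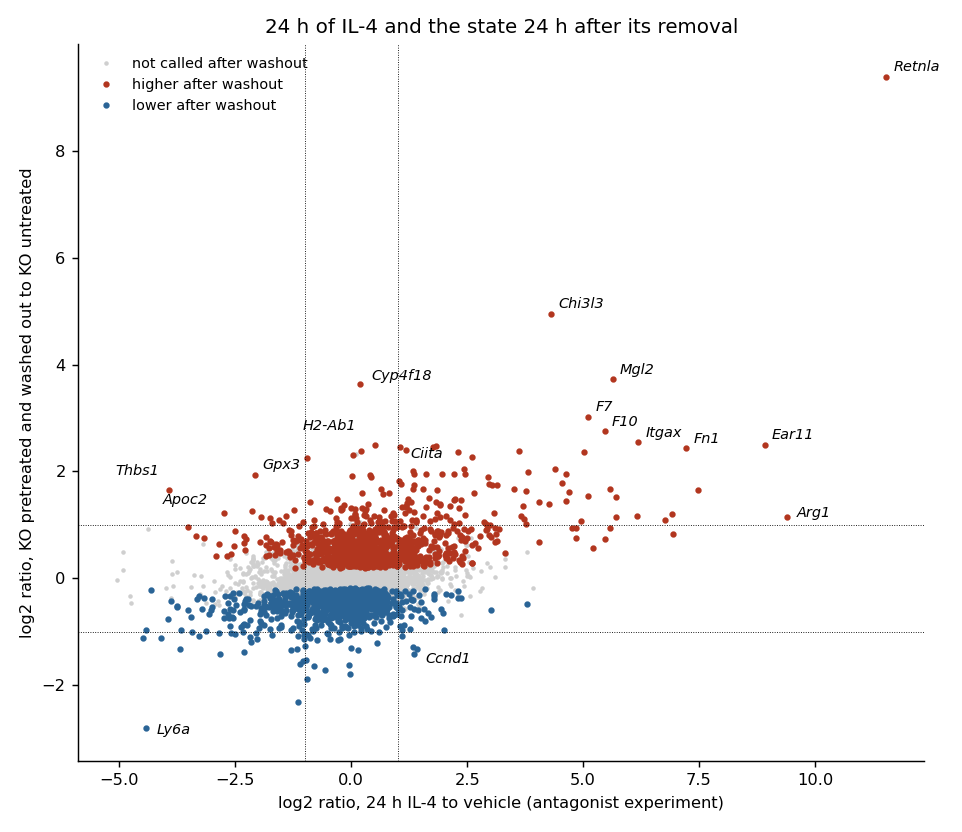
Log2 ratio of averaged columns for 24 h of IL-4 to vehicle (x axis) against the log2 ratio of pretreated and washed-out to untreated KO cells (y axis), 1 point per gene. The experiments share no samples. Retnla, Itgax and Mgl2 lie high on both axes, whereas Arg1 lies far right and low on the y axis. Dotted lines mark 2-fold, and red and blue points were called higher and lower after washout by limma.

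Of the 167 genes beyond 2-fold higher after washout, 96 (57.5%) were beyond 2-fold higher with 24 h of IL-4 as well, 59 were within 2-fold and 12 were beyond 2-fold lower. Genes within 2-fold with IL-4 include Cyp4f18, at 51.4 CPM with IL-4 and 44.9 CPM with vehicle, and H2-Aa, at 944 CPM with IL-4 and 811 CPM with vehicle. They also include H2-Eb1, at 704 CPM with IL-4 and 688 CPM with vehicle, and H2-Ab1, at 1306 CPM with IL-4 and 922 CPM with vehicle. These 3 class II genes thus stood apart between pretreated and untreated KO cells, but less than 2-fold apart between IL-4 and vehicle cells of the other experiment. Gpx3 and Apoc2 were chosen after their values were seen as examples of the 12. Gpx3, a secreted glutathione peroxidase, was at 17.9 and 19.3 CPM in pretreated KO libraries, against 5.29 and 2.91 CPM in untreated KO libraries, and averaged 4.32 CPM with 24 h of IL-4 and 21.3 CPM with vehicle. Apoc2, an apolipoprotein of the LXR list, was at 57.7 and 55.2 CPM in pretreated KO libraries, against 26.1 and 21.1 CPM in untreated KO libraries, and averaged 10.4 CPM with 24 h of IL-4 and 75.5 CPM with vehicle. Of the 52 genes beyond 2-fold lower after washout, 26 were beyond 2-fold lower with 24 h of IL-4 and 22 within 2-fold. The other 4, Ccnd1, Nup210, Ung and Col4a5, named here because they are few, were beyond 2-fold higher with IL-4, with Ccnd1 at 100.2 CPM with IL-4 and 37.1 CPM with vehicle.

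WT cells pretreated and washed out had 795 genes higher (6.99% of 11369) and 756 lower (6.65%). Of the 1039 genes called higher in KO cells, 1018 were measured in WT, and 987 (97.0%) had a positive WT difference, beside 48.7% of all 11092 genes measured in both. Called higher in both were 612 genes, which is 60.1% of those 1018 and 77.0% of the WT list. Of the 1119 genes called lower in KO cells, 1115 were measured in WT, and 1049 (94.1%) had a negative difference, beside 51.3% of all genes. Called lower in both were 438 genes, 39.3% of those 1115 and 57.9% of the WT list. The KO and WT comparisons share no samples.

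The difference of the responses was tested directly, as the KO difference minus the WT difference. limma called 0 of 11507 genes (0%), 821 had an unadjusted p under 0.05, and limma-voom called 0. The median SE of this difference was 0.188. This does not show that KO and WT cells responded alike. Without the shallower pretreated WT library, the one of the KO counting kind, 6 genes were called, and without the deeper, which leaves that one alone in its group, 536. Since the counting kinds follow the genotype labels in all libraries but that one, kind and genotype cannot be told apart. With the counting-sensitive genes left out, 4 genes were called, named here because they are few.

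Plxnd1, a semaphorin receptor, was at 1095 and 1222 CPM in pretreated KO libraries, against 1049 and 1076 CPM in untreated KO libraries. In WT cells Plxnd1 was at 742 and 727 CPM in pretreated libraries, against 375 and 456 CPM in untreated libraries, and the difference of responses was -0.70 (SE 0.13; adjusted p = 0.22, limma, all genes). Cd5l, a secreted scavenger protein of macrophages, was at 314 and 320 CPM in pretreated KO libraries, against 199 and 230 CPM in untreated KO libraries. In WT cells Cd5l was at 96.2 and 96.9 CPM in pretreated libraries, against 136 and 118 CPM in untreated libraries, a difference of responses of 0.95 (SE 0.18). Folr2, a folate receptor, was at 356 and 404 CPM in pretreated KO libraries, against 389 and 440 CPM in untreated KO libraries. In WT cells Folr2 was at 134 and 120 CPM in pretreated libraries, against 234 and 213 CPM in untreated libraries, a difference of responses of 0.68 (SE 0.13). The fourth, F13a1, the A chain of factor XIII, was called lower in KO and higher in WT, as no other gene was. F13a1 was at 178 and 148 CPM in pretreated KO libraries, against 218 and 209 CPM in untreated KO libraries, and at 271 and 317 CPM in pretreated WT libraries, against 231 and 235 CPM in untreated WT libraries, a difference of responses of -0.72 (SE 0.13). A single gene, Zfp97, was called higher in KO and lower in WT, at 1.91 and 1.55 CPM in pretreated KO libraries, against 0.639 and 0.583 CPM in untreated KO libraries. In WT cells Zfp97 was at 3.31 CPM in the deeper and 0.567 CPM in the shallower pretreated library, against 4.49 and 4.64 CPM in untreated libraries. Both pretreated WT libraries were thus below both untreated ones. The shallower one is of the KO counting kind, and the part of that kind in the WT call was not tested.

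**Figure D5:**
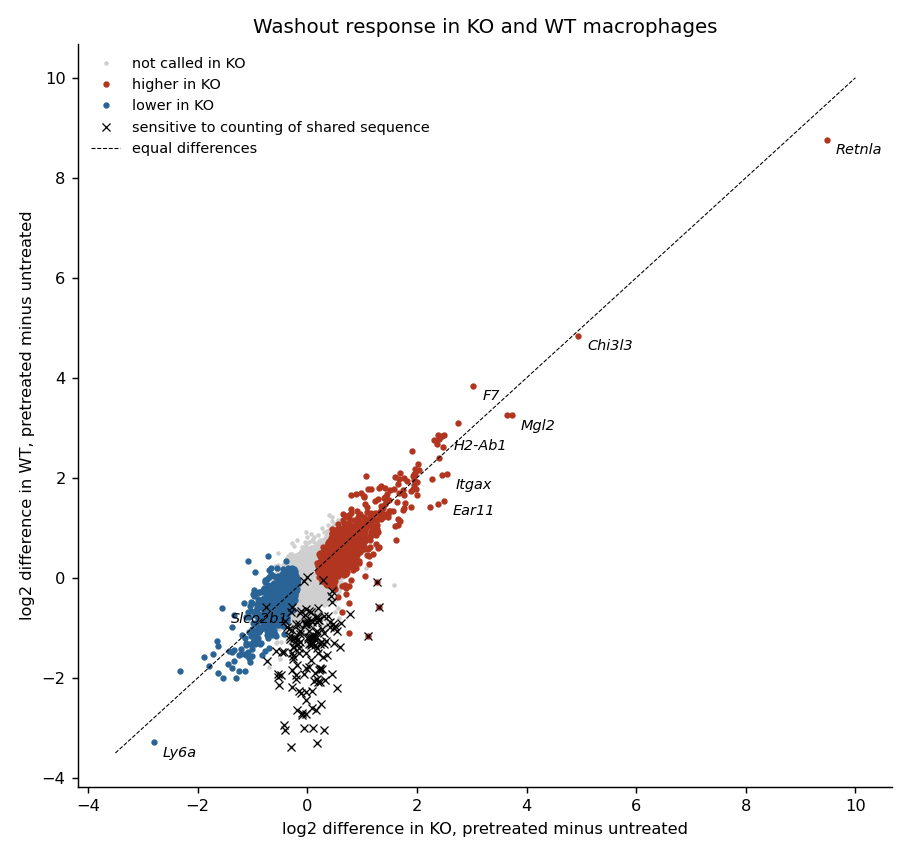
Log2 difference of pretreated minus untreated cells in KO (x axis) against WT (y axis), 1 point per gene, with equal responses on the dashed line and counting-sensitive genes as crosses. Retnla (9.48 in KO, 8.77 in WT) and Chi3l3 (4.95 in KO, 4.84 in WT) lie near the line.

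The largest responses of KO cells had WT counterparts. The log2 difference of Retnla was 9.48 in KO and 8.77 in WT cells, and that of Chi3l3 was 4.95 in KO and 4.84 in WT cells. For Mgl2 it was 3.73 in KO and 3.26 in WT cells, for Itgax 2.55 in KO and 2.07 in WT cells, and for Ciita 2.46 in KO and 2.85 in WT cells. Among lowered genes it was -2.80 in KO and -3.29 in WT cells for Ly6a, -2.31 in KO and -1.85 in WT cells for Ctla2a, and -1.55 in KO and -0.60 in WT cells for Slco2b1. None of these differences between KO and WT was called by limma.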

How the data were processed

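Poly-A RNA of bone marrow-derived macrophages was sequenced on an Illumina HiSeq from TruSeq libraries, per the labels' protocols. The submitters' processing notes name mm10, Cufflinks 2.0.2 and TopHat2 2.0.7; what each did to the tables is not given in the sources used here. The authors deposited averaged CPM per group, recorded here as signal, with no spread. Each averaged value was separated into whole reads of 2 libraries by their read steps; of 171808 values above 0, 99.5% had 1 solution. Unresolved values entered as 1 observation of weight 2, which touched 8 genes of the KO comparison. The test was limma-trend 3.58.1 (R 4.3.3) on log2(CPM + 1) of the 16 memory libraries, with 1 coefficient and 1 weight per group and Benjamini-Hochberg adjustment; adding 1 CPM understates changes of low genes. Named genes are the 15 highest and 15 lowest called genes by ratio of averaged columns, Pparg, up to 5 called members per list, defining members that were not called, and the 10 largest 24 h rises. The pipeline was tested on simulated data. Members, lists and tests were chosen with earlier results of these data known. Promoters came from RefSeq, GRCm38.p6. Overlapping and antisense genes cannot be told apart.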

Additional observations from a re-analysis of the deposited data

Results flagged for a closer look

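Outside the groups compared, fibroblast markers summed to 2169 CPM in the deeper library of WT cells pretreated with IL-4 and stimulated again for 3 h, against 12.6 and 13.2 CPM in the untreated WT libraries. This signal lies in a library that no comparison above uses as a group, although it enters the fit, in which its group had a weight of 0.097.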

How the results depend on the processing

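No paired analysis was possible because the averaged columns carry no replicate numbers and the separated libraries cannot be tied to them. Among the 140 named genes no difference changed direction in any alternative. Genes called higher and lower numbered 366 and 211 without group weights, 337 and 196 by limma-voom, and 599 and 500 with the counting kind as a term. That term cannot change a KO difference, because all KO libraries are of the same kind. Leaving out 1 library gave 346 to 603 higher and 207 to 610 lower. Over all lists, 172 genes were higher and 102 lower, with 97 and 34 without group weights, 87 and 40 by limma-voom, 65 lower with the counting kind as a term, and 93 to 123 higher and 40 to 72 lower leaving out 1 library. IL-4 effectors higher numbered 12 by limma-voom and 18 to 20 leaving out 1 library. MHC class II genes higher numbered 8 leaving out 1 library. G1/S genes lower numbered 10 without group weights, 10 by limma-voom and 9 to 20 leaving out 1 library. G2/M genes higher numbered 7 without group weights, 5 by limma-voom, 10 with no filter on low values and 7 to 9 leaving out 1 library. With 0.25 CPM added 283 and 95 genes were beyond 2-fold higher and lower, with 4 CPM added 92 and 14, and leaving out 1 library 175 to 189 and 48 to 60. The KO minus WT count was 1 with the counting kind as a term, 4 without counting-sensitive genes and 0 to 536 leaving out 1 library. Where 1 library of a group is left, it is assumed to vary like the other groups. Among genes beyond 4-fold with 24 h of IL-4, 70.6% of induced genes were called higher and 38.7% of repressed genes lower. The cause of these shifts was not tested. With 2 libraries per group, small differences rest on the spread shared across genes and groups.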
